A study of Mus musculus with 2 samples.

Results

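Cells of the lung that carried both Scgb1a1 and Cyp2f2 RNA, the pair of transcripts that marks club and secretory cells of the airway, were taken from 2 single-cell libraries, and 258 of the 16848 cell barcodes met the rule. A barcode was a member if it had at least 500 genes, at most 15% mitochondrial UMIs (unique molecular identifiers, 1 for each RNA molecule counted) and at most 3 UMIs of Col1a1, Col1a2 and Col3a1 together. Per 10000 UMIs it also had at least 100 of Scgb1a1, at least 5 of Cyp2f2 and fewer than 20 of 5 ciliated cell genes (Tmem212, Ccdc153, Dynlrb2, Rsph1, Cfap126) together. The navitoclax library gave 112 members and the vehicle library 146. Because these genes chose the cells, their levels in the members are given as a description.

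Both libraries were made from C57Bl6 mouse lungs. Bleomycin, which scars the lung, was given to all mice on day 1. One group then received navitoclax (ABT-263), which blocks the survival proteins BCL-2, BCL-W and BCL-XL, from day 15 to day 20, and the other received vehicle. Lungs were harvested 21 days after the injury, digested and flow-sorted for epithelial and stromal cells. There was 1 library per group and no uninjured group, and the labels do not state the number of mice per library. No difference between the libraries has a replicate check and none was tested. Every interval below is a 95% interval that covers counting error only, neither differences between mice nor between preparations.

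Club cells are dome-shaped secretory cells of the bronchioles. They release secretoglobins, small proteins such as Scgb1a1 that line the airway, and they carry cytochrome P450 enzymes such as Cyp2f2 that oxidise inhaled chemicals. They can renew themselves and give rise to ciliated cells after airway injury, and Notch signalling keeps them in the secretory state. In mice, cells carrying both Scgb1a1 and the surfactant gene Sftpc are also known where bronchioles open into alveoli.

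The members were deeply sequenced. Their median depth was 30113 UMIs in the navitoclax library (range 2192 to 135031) and 30857.5 UMIs in the vehicle library (range 2096 to 100489), with medians of 3959 and 3723 genes and of 3.60% and 3.46% mitochondrial UMIs. Together the members held 4275525 UMIs of the navitoclax and 5334124 UMIs of the vehicle library, out of 98517048 and 97958947. Immune marker genes summed to 0.234 CPM (UMIs per 1000000 UMIs) in navitoclax members and 0.375 CPM in vehicle members. Doublet calling marked 4 of 112 navitoclax members and 3 of 146 vehicle members. The libraries shared 20 barcodes, and 0 of these were members.

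The thresholds did not fall in gaps of the data. The lowest Scgb1a1 level among members was 100.2 per 10000 UMIs in the navitoclax and 107.8 in the vehicle library, and the nearest cells failing this limit alone had 97.1 and 99.0. For Cyp2f2 the lowest members had 5.02 and 5.04 per 10000 and the nearest cells outside had 4.95 and 4.96. Cells that failed the Scgb1a1 limit alone numbered 38 in the navitoclax and 66 in the vehicle library, and those that failed the Cyp2f2 limit alone numbered 30 and 33.

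The members did not form a single population, and the label of airway secretory cells held for only part of them. Sftpc, which encodes surfactant protein C of alveolar type II (AT2) cells, was under 20 per 10000 UMIs in 48 navitoclax and 63 vehicle members, and at or above 1000 per 10000 in 40 and 55. Between these, 7 navitoclax and 16 vehicle members had 20 to 200, and 17 and 12 had 200 to 1000. A line at 50 per 10000 set 53 navitoclax and 73 vehicle members apart as Sftpc-low and left 59 and 73 as Sftpc-high.

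**Figure D1:**
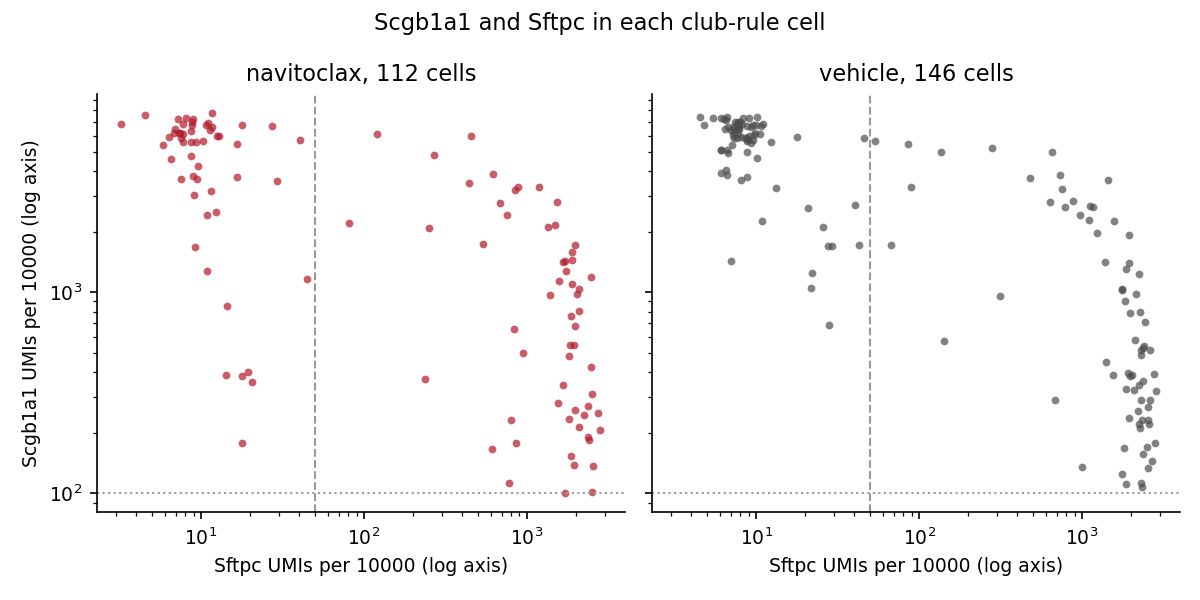
Each point is a member cell of the navitoclax library (left, 112 cells) or the vehicle library (right, 146 cells), with Sftpc on the horizontal and Scgb1a1 on the vertical axis, both in UMIs per 10000 on log axes. The dashed line at 50 divides Sftpc-low from Sftpc-high members, the dotted line at 100 is the Scgb1a1 limit of the rule, and Sftpc-low members lie higher on the Scgb1a1 axis, with medians of 5610 and 5974 against 757 and 527.

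Sftpc-low members had the make-up of club cells. Scgb1a1 took a median of 5610 of every 10000 UMIs in Sftpc-low members of the navitoclax library and 5974 in those of the vehicle library. Their median Cyp2f2 level was 51.6 per 10000 in the navitoclax and 59.3 in the vehicle library. Scgb3a2, a secretoglobin of the distal airway that the rule did not use, had medians of 52.9 and 47.6 per 10000. It was at 5 per 10000 or more in 40 of 53 navitoclax cells (75.5%, 61.7 to 86.2) and 52 of 73 vehicle cells (71.2%, 59.4 to 81.2). In fibroblasts, which should lack Scgb3a2, the same level was reached by 0.111% and 0.0937% of cells, at median depths of 8325 and 7626 UMIs against 49136 and 50213 UMIs in Sftpc-low members. The median Sftpc level of Sftpc-low members was 9.42 per 10000 in the navitoclax and 8.20 in the vehicle library, and that of fibroblasts 21.5 and 18.2. Scgb1a1 took most UMIs of Sftpc-low members, which lowers the levels of their other genes, and these values are not adjusted for that. The 9 AT2 markers together, given below, had more CPM in Sftpc-low members than in fibroblasts.

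Sftpc-high members carried the AT2 program beside Scgb1a1. Their median Sftpc level was 1723 per 10000 UMIs in the navitoclax and 1931 in the vehicle library, against 2333 and 2233 in AT2 cells of the same libraries. The 9 AT2 markers summed to 184966 CPM in navitoclax and 205608 CPM in vehicle Sftpc-high members. They summed to 285532 and 278968 CPM in AT2 cells, 31067 and 21037 CPM in ciliated cells, 8052 and 6488 CPM in Sftpc-low members and 3301 and 3737 CPM in fibroblasts. All 9 were at 20 CPM or more in Sftpc-high members, but this was so in ciliated cells too, so the summed level and not this count sets Sftpc-high members apart. Sftpa1, another surfactant gene, had medians of 215 and 272 per 10000 in Sftpc-high members against 24.8 and 22.1 in Sftpc-low members. AT2 cells are here the cells outside the rule with Sftpc at 100 per 10000 or more and an UMI of Lamp3, Slc34a2 or Abca3. Lamp3, a lamellar body gene, had medians of 6.65 and 6.07 in Sftpc-high members and 14.6 and 14.4 in AT2 cells.

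Scgb1a1 in Sftpc-high members was far above the level that other cells of the same libraries showed. Its median was 757 per 10000 UMIs in navitoclax and 527 in vehicle Sftpc-high members. AT2 cells had 3.50 and 4.67, ciliated cells 11.5 and 15.1, and fibroblasts 4.67 and 6.29 per 10000. The rule required at least 100, so part of this gap was set by the rule. Scgb3a2, which the rule did not use, was at 5 per 10000 or more in only 7 of 59 navitoclax and 12 of 73 vehicle Sftpc-high members. Doublet calling marked 2 of 59 navitoclax and 0 of 73 vehicle Sftpc-high members, and their median depths were 25485 and 23223 UMIs, against 19570 and 17739 UMIs in AT2 cells. Whether undetected doublets of a club and an AT2 cell form part of these members was not tested.

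**Figure D2:**
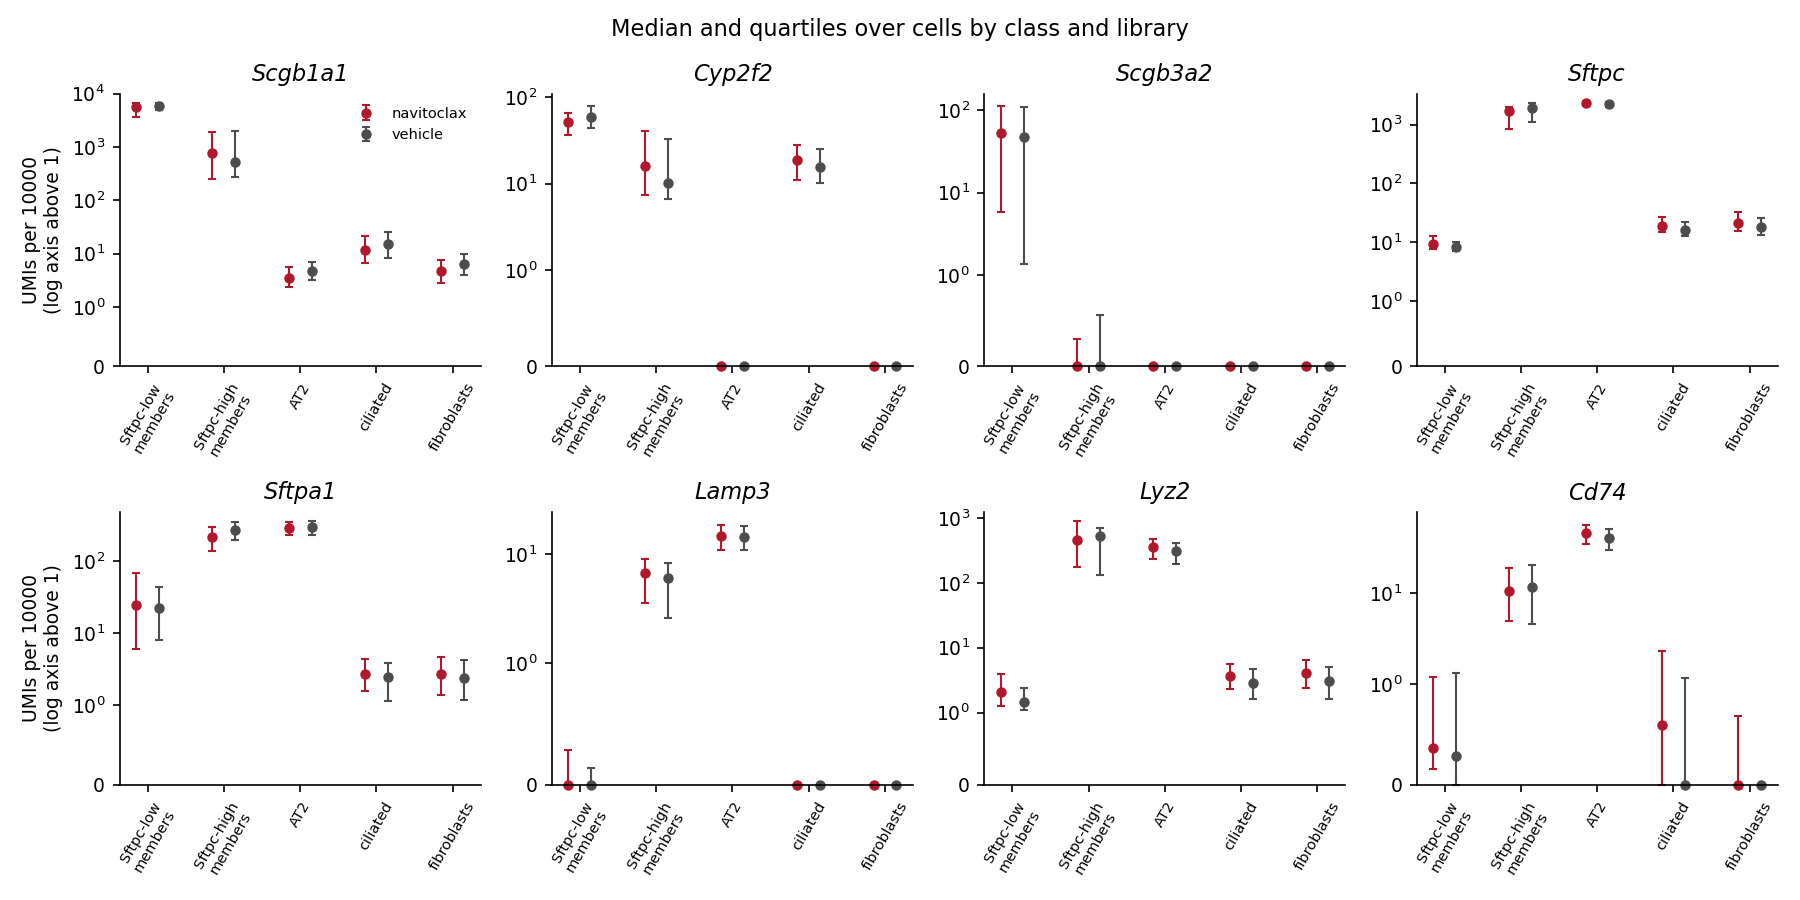
Points give the median and bars the quartiles over cells of 8 genes, in UMIs per 10000 on an axis that is logarithmic above 1, for Sftpc-low members, Sftpc-high members, AT2 cells, ciliated cells and fibroblasts of the navitoclax library (left point of each pair) and the vehicle library (right point). Sftpc-high members join median Sftpc levels of 1723 and 1931 with Scgb1a1 levels of 757 and 527, while Cd74 in them, at 10.5 and 11.6, lies under the AT2 medians of 45.6 and 40.8.

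Levels of other genes in Sftpc-high members were set against AT2 cells as CPM over a total without 5 club marker genes. These were Scgb1a1, Scgb3a1, Scgb3a2, Bpifa1 and Cyp2f2, left out so that Scgb1a1 did not dilute the other genes. By this measure 5 genes were at least 1.5 times higher than in both AT2 cells and Sftpc-low members in each library, as a description of cells that were chosen by their RNA. Chia1, an acidic chitinase, had 772 CPM in navitoclax and 639 CPM in vehicle Sftpc-high members, against 296 and 305 CPM in AT2 cells. Creb3l1, a membrane-bound transcription factor of secretory cells, had 69.8 and 92.8 CPM against 20.0 and 19.6 CPM. The others were G0s2, an inhibitor of triglyceride breakdown, Fam102b, and Lyz2, which encodes lysozyme.

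Against AT2 cells alone, a looser rule than the one above, 66 genes were at least 1.5 times lower in Sftpc-high members in each library. The counts of higher and lower genes follow unlike rules and are not compared, and no share over all genes is given for either. Cd74, the invariant chain of MHC class II, had 1468 CPM in navitoclax and 1645 CPM in vehicle Sftpc-high members, against 4699 and 4245 CPM in AT2 cells. Fabp5, a fatty acid carrier, had 256 and 238 CPM against 1081 and 1165 CPM. Apoe, an apolipoprotein, had 109 and 131 CPM against 588 and 680 CPM. Acoxl, which is related to peroxisomal acyl-CoA oxidases, had 17.3 and 21.5 CPM against 204 and 216 CPM. Lamp3, which helped to choose the AT2 cells, was also among the 66, with 712 and 690 CPM against 1466 and 1447 CPM. The summed AT2 markers, as CPM over all UMIs, were lower too, at 184966 and 205608 against 285532 and 278968 CPM. Sftpc-high members therefore carried surfactant genes with less RNA of AT2 markers and of these MHC class II and lipid-handling genes. Whether the latter were lowered beyond the AT2 profile as a whole was not tested.

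The remaining set was small. Scgb3a1 or Bpifa1, secreted products typical of more proximal airway, was at 5 per 10000 UMIs or more in 7 of 112 navitoclax members and 4 of 146 vehicle members, all of them Sftpc-low. Scgb3a1 ranged from 3.53 to 1145 per 10000 in the 7 navitoclax cells and from 101 to 740 in the 4 vehicle cells. Bpifa1, an antimicrobial protein of the upper airway, ranged from 0 to 1130 and from 0.176 to 734 per 10000. Goblet cell markers (Muc5ac, Muc5b, Spdef, Tff2, Gp2) summed to 2053 CPM in the navitoclax and 910 CPM in the vehicle cells of this set. Of 5 basal cell markers, Krt5, Trp63, Krt14 and Ngfr were at 0 UMIs in all 11 cells, and Krt15 had 149 CPM in the navitoclax cells and 0 in the vehicle cells. These 11 cells held most of the UMIs of several secretory genes, so the values below are also given without them.

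The shares of the members among epithelial and airway cells were compared as counts of cells. Members made up 111 of 3118 epithelial cells of the navitoclax library (3.56%, 2.94 to 4.27) and 145 of 3392 of the vehicle library (4.27%, 3.62 to 5.01), exact Clopper-Pearson intervals. The difference was −0.715 percentage points (−1.66 to 0.235). Set against ciliated cells, the members made up 112 of 576 cells in the navitoclax library (19.4%, 16.3 to 22.9) and 146 of 545 in the vehicle library (26.8%, 23.1 to 30.7), a difference of −7.34 points (−12.3 to −2.41). Ciliated cells themselves made up 14.7% of navitoclax and 11.6% of vehicle epithelial cells, so the lower share among airway cells went with more ciliated cells as well as fewer members.

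The make-up of the members was compared in the same way. Sftpc-high cells were 59 of 112 navitoclax members (43.0% to 62.2%) and 73 of 146 vehicle members (41.6% to 58.4%), a difference of 2.68 points (−9.50 to 14.7). Sftpc-low members were 53 of 517 cells when set against ciliated cells in the navitoclax library (10.3%) and 73 of 472 in the vehicle library (15.5%), −5.21 points (−9.45 to −1.04). Sftpc-high members were 2.27% of Sftpc-high and AT2 cells together in the navitoclax and 2.55% in the vehicle library, −0.285 points (−1.10 to 0.543).

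For gene expression, UMIs were summed over the members of each library and expressed as CPM. Of 10137 genes with at least 20 UMIs over both libraries, 286 (2.82%) were past 1.5-fold higher in navitoclax members and 29 (0.286%) past 1.5-fold lower, on the scale log2((navitoclax CPM + 5)/(vehicle CPM + 5)). The median of all genes was 0.13 on this scale and 73.3% of them were above 0, so counts of list genes above 0 are to be read against that share. Scgb1a1 alone took 393114 CPM in navitoclax and 444128 CPM in vehicle members. With the same 5 club marker genes left out of the total, the median was 0.06 and the counts were 348 higher (3.43%) and 113 lower (1.11%). Scaling by the median ratio gave 133 higher and 59 lower. Log2 values below are to be read against the median of 0.13.

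The same measure gave 460 genes higher (5.41%) and 72 lower (0.846%) in Sftpc-low members, and 565 higher (6.78%) and 151 lower (1.81%) in Sftpc-high members. Genes above 0 made up 69.0% in Sftpc-low and 61.7% in Sftpc-high members. In the more numerous ciliated and AT2 cells the shares were 0.779% higher and 0.254% lower, and 0.225% higher and 0.0824% lower. Classes with fewer UMIs in all had more genes past the fixed fold. The part of depth in these shares was not tested, and they are not read as measures of response. Among Sftpc-high members, 8 ciliated cell markers summed to 418 CPM in the navitoclax and 41.1 CPM in the vehicle library, and their part in the counts was not tested. In Sftpc-low members these markers summed to 567 and 581 CPM.

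Hspa1a and Hspa1b, a pair of heat shock genes, had the highest ratios among the genes named by rank. Heat shock genes encode chaperones that hold or refold damaged proteins, and the factor HSF1 induces them through arrays of the short element nGAAn. Hspa1a, an inducible HSP70, had 2123 UMIs (497 CPM) in navitoclax members and 36 UMIs (6.75 CPM) in vehicle members, a ratio of 73.6 (52.97 to 105). Hspa1b, its near-identical neighbour, had 1265 and 27 UMIs (296 and 5.06 CPM), a ratio of 58.5 (40.0 to 89.1). Hspa1a UMIs were found in 96 of 112 navitoclax and 29 of 146 vehicle members, so the gap was spread over most cells. The highest single vehicle member had 1.23 per 10000, while the median navitoclax member had 3.23. Reads of Hspa1a and Hspa1b can be assigned to either copy, so their separate values are less certain than their sum.

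Both member types shared the gap. The Hspa1a ratio was 69.0 (44.5 to 113) in Sftpc-low members, from 1031 and 20 UMIs, and 76.1 (46.6 to 134) in Sftpc-high members, from 1092 and 16 UMIs. In AT2 cells it was 28.9 (27.1 to 31.0), from 520 CPM in the navitoclax and 18.0 CPM in the vehicle library, and in ciliated cells 11.4 (8.62 to 15.2), from 136 and 11.9 CPM. Each epithelial class measured had the gap. Tissue dissociation can also induce these genes and immediate-early genes. Of 23 measured immediate-early genes 16 were above 0, where 73.3% of all genes were. In navitoclax members 4 of the 23 were past 1.5-fold higher, where 2.82% of all genes were, and the median of the 23 was 0.21. The part of dissociation in the heat shock values was not tested.

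**Figure D3:**
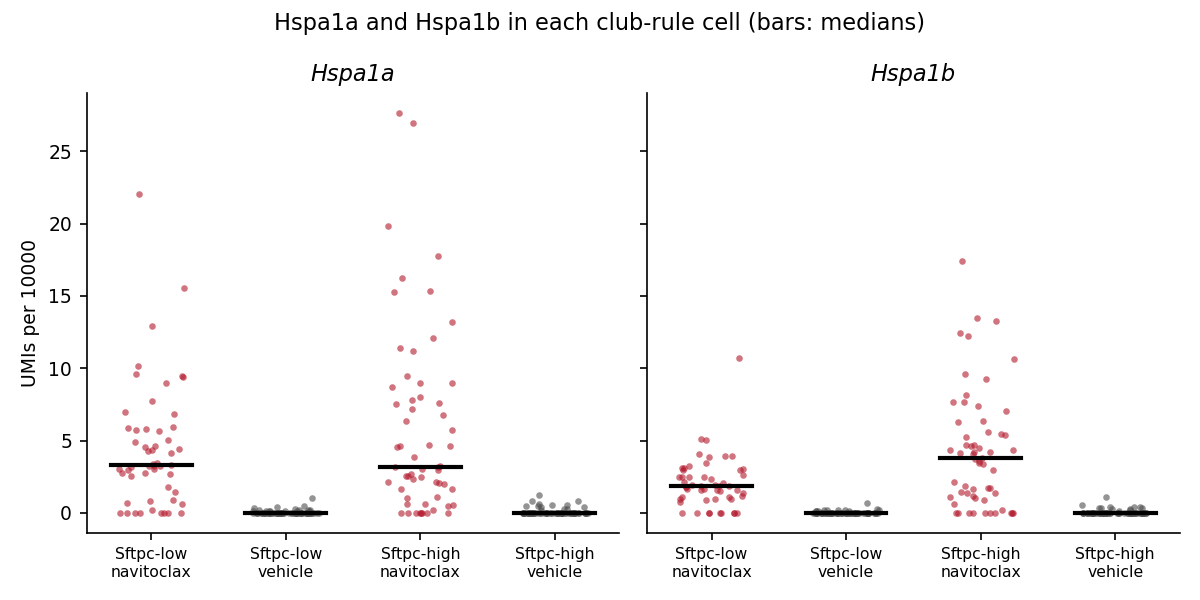
Each point is a member, with UMIs per 10000 of Hspa1a (left panel) and Hspa1b (right panel) on a linear vertical axis, grouped as Sftpc-low and Sftpc-high with the navitoclax library left of the vehicle library, and black bars at the medians. Every vehicle median is 0, and Hspa1a has a median of 3.19 in Sftpc-high navitoclax members.

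These 3 promoters are printed because these genes differed most among heat shock genes with a promoter holding an inverted pair of the HSF1 element. They are the 250 bases before the transcription start from RefSeq (GRCm38.p6), written 5′ to 3′ on the gene's strand. Capitals mark an inverted pair of the element with the letters GAANNTTC or TTCNNGAA, both of which read the same on either strand. Hspa1a lies on the minus strand and its window is chr17:34972157-34972406. Hspa1b lies on the minus strand and its window is chr17:34959239-34959488. Hspb1 lies on the plus strand and its window is chr5:135887669-135887918.
Hspa1a: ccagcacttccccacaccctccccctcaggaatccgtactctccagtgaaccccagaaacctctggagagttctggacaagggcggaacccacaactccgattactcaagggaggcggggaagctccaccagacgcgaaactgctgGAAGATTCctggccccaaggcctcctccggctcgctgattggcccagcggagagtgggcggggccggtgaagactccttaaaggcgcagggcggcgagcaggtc
Hspa1b: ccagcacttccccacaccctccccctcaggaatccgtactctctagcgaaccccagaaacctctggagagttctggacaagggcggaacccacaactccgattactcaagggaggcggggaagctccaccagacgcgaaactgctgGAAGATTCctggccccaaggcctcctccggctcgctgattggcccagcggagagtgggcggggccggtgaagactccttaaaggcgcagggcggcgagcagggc
Hspb1: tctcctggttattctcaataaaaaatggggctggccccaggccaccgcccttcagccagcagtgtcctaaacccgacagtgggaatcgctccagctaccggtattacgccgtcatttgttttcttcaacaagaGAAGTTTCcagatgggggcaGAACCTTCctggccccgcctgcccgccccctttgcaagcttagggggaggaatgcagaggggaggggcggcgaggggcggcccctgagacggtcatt
The Hspa1a and Hspa1b windows were identical at 247 of 250 bases, and each held a single pair, GAAGATTC, 104 to 97 bases before the start. Hspb1 held GAAGTTTC at 117 to 110 and GAACCTTC at 97 to 90 bases before its start.

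Of all 32851 RefSeq promoter windows of this length, 4218 (12.8%) held such a pair, and 11 of the 25 windows of the heat shock list did. Some genes have more than 1 window, and of all 27025 genes with a window 3932 (14.5%) held the pair in at least 1. Counted in this way, 18 of the 23 genes of the list had a window and 10 held the pair. Of the 9 list genes past 1.5-fold, 7 had a window and 6 held the pair, while Dnajb1 had none in its 2 windows. Pairs extended by a further inverted unit, a triple, were held by 153 of all windows (0.466%). Of the list genes 2 held a triple, as did 1 of those past 1.5-fold, but none of the printed promoters did. The list genes with a triple were Hspd1 and Hspe1, whose windows overlap on opposite strands and hold the same stretch. Hspa1a and Hspa1b, with near-identical windows, were also counted as separate genes, so these counts are not of independent promoters. A match is a description of these letters, not of HSF1 binding.

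Other chaperones differed less but in the same direction. Dnajb1, the HSP40 partner of HSP70, had 612 UMIs in navitoclax and 117 UMIs in vehicle members (143 and 21.9 CPM), a ratio of 6.53 (5.35 to 8.02). Its log2 ratio was 3.02 in Sftpc-low and 1.67 in Sftpc-high members, against 1.72 in ciliated and 0.72 in AT2 cells. Hspb1, the small chaperone HSP27, had 310 and 85.5 CPM, a ratio of 3.62 (3.25 to 4.04), and log2 ratios of 1.93 in Sftpc-low and 1.56 in Sftpc-high members, 1.05 in ciliated and 1.10 in AT2 cells. Hsph1, an exchange factor for HSP70, had 158 and 49 UMIs and a log2 ratio of 1.56.

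The remaining chaperones were closer to the median of all genes. Hspa8, the constitutive HSC70, had 877 CPM in navitoclax and 504 CPM in vehicle members, and Hsp90aa1, an inducible HSP90, had 430 and 218 CPM. Hspd1, the mitochondrial HSP60, had 65.0 and 49.5 CPM, and Hsf1 itself had 28 UMIs in each library. Of 23 measured genes of the list, 21 had a log2 ratio above 0 (73.3% of all genes did). Of the 23, 9 were past 1.5-fold higher (2.82% of all genes were) and 0 past 1.5-fold lower, with a median of 0.37. The medians were 0.48 in Sftpc-low and 0.45 in Sftpc-high members, and 0.15 in ciliated and 0.11 in AT2 cells.

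Secretory and antimicrobial products had a higher list median than heat shock genes. All 23 measured genes of the list had a log2 ratio above 0 (73.3% of all genes did). In navitoclax members 16 were past 1.5-fold higher (2.82% of all genes were), with a list median of 1.02. The 11 cells with Scgb3a1 or Bpifa1 carried much of this. Bpifa1 had 10896 UMIs in navitoclax and 468 UMIs in vehicle members, of which 5091 and 425 were in the highest cell of each library. Since Bpifa1 and Scgb3a1 chose the 11 cells, no ratio without those cells is given for either gene. In Sftpc-low members the log2 ratio of Reg3g, an antimicrobial lectin, was 0.13 without the 11 cells and 3.38 with them, and that of Bpifb1, a relative of Bpifa1, was 0.25 and 4.10. With Bpifa1 and Scgb3a1 left out of the list, Sftpc-low members without the 11 cells had 16 measured genes, all 16 above 0 and 8 past 1.5-fold higher, where 5.54% of all genes were, and a median of 0.61.

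Retnla did not depend on those 11 cells. It encodes RELMα, a secreted protein that IL-4 and IL-13 induce in the mouse lung. Navitoclax members had 5540 UMIs (1296 CPM) and vehicle members 1234 UMIs (231 CPM), a ratio of 5.60 (5.26 to 5.96). The 5 highest cells held 49.9% of these UMIs in the navitoclax and 28.8% in the vehicle library, and without those cells the levels were 713 and 172 CPM. UMIs of Retnla were found in 76 of 112 navitoclax and 71 of 146 vehicle members. The log2 ratio was 2.68 in Sftpc-low members without the 11 cells and 2.12 in Sftpc-high members, against 1.20 in ciliated and 0.83 in AT2 cells.

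Some products were higher in Sftpc-low members without the 11 cells as well. Chil1, a chitinase-like protein, had 800 CPM in navitoclax and 440 CPM in vehicle members, and its log2 ratio was 1.66 in these cells and 0.51 in Sftpc-high members. Slpi, a protease inhibitor, had log2 ratios of 2.40 and 0.28 from 146 and 76 UMIs in all. Ltf, which encodes lactoferrin, had 1110 UMIs in navitoclax and 64 UMIs in vehicle members, but 709 of the navitoclax UMIs were in a single cell. Lypd2, a LY6-family surface protein, had 1178 and 626 UMIs, and its log2 ratio in Sftpc-low members was 1.25 with and 0.11 without the 11 cells.

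The main club cell products differed little. Scgb3a2 had 32748 UMIs in navitoclax and 31461 UMIs in vehicle members (7659 and 5898 CPM), a log2 ratio of 0.38, and 0.11 in Sftpc-low members without the 11 cells. Wfdc2, a secreted antiprotease-like protein, had 5813 and 5328 CPM. Cyp2f2 had 4179 CPM in navitoclax and 4659 CPM in vehicle members. Scgb1c1, another secretoglobin, had 148 and 127 CPM.

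Among acute phase genes, Lcn2 and Lrg1 were past 1.5-fold higher in both Sftpc-low and Sftpc-high members. Lcn2, lipocalin-2, which binds bacterial siderophores, had 541 UMIs in navitoclax and 69 UMIs in vehicle Sftpc-low members (214 and 20.4 CPM), a ratio of 10.5 (8.16 to 13.7). Of the 541 UMIs, 262 were in the highest cell. In Sftpc-high members Lcn2 had 1058 and 606 CPM, a ratio of 1.75 (1.62 to 1.88), and in AT2 cells a ratio of 1.52 (1.503 to 1.53). Lrg1, a secreted glycoprotein of the acute phase, had 87.0 and 12.7 CPM in Sftpc-low members, a ratio of 6.85 (4.92 to 9.73), and a ratio of 2.67 (2.37 to 3.01) in Sftpc-high members, against 1.23 (1.20 to 1.25) in AT2 cells. Hp, haptoglobin, had 5101 CPM in navitoclax and 3727 CPM in vehicle members, a log2 ratio of 0.45, with 0.49 in Sftpc-low members. Lcn2 had 1963 and 1294 CPM in AT2 cells, and the part of the AT2 marker levels given above for Sftpc-low members in their Lcn2 values was not tested. Whether these ratios differ between cell classes was not tested.

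The chemokines Cxcl5, Ccl20 and Cxcl2 did not follow one direction. In the library where each was higher, most of its UMIs were in 1 cell. Other chemokines are not described here. Cxcl5 had 111 UMIs in navitoclax members, 87 of them in 1 cell, and 20 in vehicle members. Ccl20 had 4 UMIs in navitoclax and 100 in vehicle members, 95 of them in 1 cell. Cxcl2 had 0 UMIs in navitoclax members and 31 in vehicle members, 30 of them in 1 cell. Over the 21 measured genes of the acute phase, antimicrobial and chemokine list, 17 were above 0, 5 past 1.5-fold higher and 2 past 1.5-fold lower, with a median of 0.45. Of all genes 73.3% were above 0, 2.82% past 1.5-fold higher and 0.286% past 1.5-fold lower. With the cell of the highest summed level left out of each library, a comparison chosen after the values were seen, the median was 0.50 over 18 genes.

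Interferon-induced genes were higher in Sftpc-low members, in part through 1 cell. Ifitm3, a membrane protein that restricts viral entry, had 947 UMIs in navitoclax and 333 UMIs in vehicle Sftpc-low members (374 and 98.3 CPM), a ratio of 3.81 (3.36 to 4.33). In Sftpc-high members the ratio was 1.20 (0.982 to 1.48), in AT2 cells 1.14 (1.03 to 1.25), and in ciliated cells the log2 ratio was 0.58. Isg15, a ubiquitin-like modifier, had 137 UMIs in navitoclax members, of which 125 were in 1 cell, and 11 in vehicle members. Irf7, a regulator of interferon genes, had 71 UMIs in navitoclax members, of which 28 were in 1 cell, and 18 in vehicle members. All 15 measured interferon genes were above 0 in Sftpc-low members, 9 were past 1.5-fold and the median was 1.09. Of all genes in Sftpc-low members 69.0% were above 0 and 5.41% past 1.5-fold higher. Without the cell of highest summed level in each library, 11 genes were measured, all above 0, with 5 past 1.5-fold and a median of 0.48.

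MHC class I genes, which present peptides to T cells, were measured in the same way. In Sftpc-low members 14 of 15 measured genes of the class I and immunoproteasome list were above 0, 6 were past 1.5-fold higher and the median was 0.56. Of all genes in Sftpc-low members 69.0% were above 0 and 5.41% past 1.5-fold higher. Without the cell of highest summed level in each library, 14 of 15 were still above 0, 2 were past 1.5-fold and the median was 0.49. B2m, the light chain of MHC class I, had 169 CPM in navitoclax and 106 CPM in vehicle members, and its log2 ratio was 0.96 in Sftpc-low and 0.26 in Sftpc-high members. H2-K1, a heavy chain, had 425 and 308 CPM and was at 5 per 10000 or more in 24.5% of navitoclax and 9.59% of vehicle Sftpc-low members. The list medians were 0.16 in Sftpc-high members, 0.15 in ciliated cells and −0.02 in AT2 cells.

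Keratin and stress-adaptor genes of the injured epithelium were uneven. Krt8, an intermediate filament protein that marks transitional epithelial states, was at 5 per 10000 or more in 13 of 53 navitoclax and 8 of 73 vehicle Sftpc-low members (24.5% and 11.0%). Its summed level in these cells was 300.0 CPM in the navitoclax and 255 CPM in the vehicle library, a ratio of 1.18 (1.07 to 1.30), so the share over this line differed more than the level. With each cell thinned to 2000 UMIs, 50.9% and 35.6% had a Krt8 UMI. Sfn, the 14-3-3σ adaptor, had 527 UMIs in navitoclax and 166 UMIs in vehicle Sftpc-low members, a ratio of 4.25 (3.56 to 5.09), against 1.28 (0.997 to 1.65) in Sftpc-high members. Basal cell markers (Krt5, Trp63, Krt14, Krt15, Ngfr) summed to 33.2 CPM in navitoclax and 0.886 CPM in vehicle Sftpc-low members, and their part in these values was not tested. The 5 highest cells held 53.9% of the Sfn UMIs of all navitoclax members and 20.2% of those of vehicle members.

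Part of the Sfn UMIs lay in cells with little Scgb1a1. Of the Sftpc-low members, 6 of 53 navitoclax cells (11.3%) and 1 of 73 vehicle cells (1.37%) had Scgb1a1 under 1000 per 10000 UMIs, a line drawn after the values were seen. Their median depths were 11777 UMIs in the navitoclax library and 3596 UMIs for the vehicle cell. In the 6 navitoclax cells Sfn had 180 UMIs (2519 CPM), against 347 UMIs (141 CPM) in the 47 other Sftpc-low navitoclax cells. Krt8 had 644 and 290 CPM in the same sets, and Ifitm3 714 and 364 CPM. The 6 cells held few of the UMIs of these genes, 46 of Krt8 and 51 of Ifitm3, against 713 and 896 in the 47 others. Lcn2 went the other way, with 28.0 and 219 CPM. The 6 cells were chosen for little Scgb1a1, which raises the CPM of their other genes. The CPM values of both sets are not adjusted for that.

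Fxyd3, a regulator of the sodium pump, had 367 UMIs in navitoclax and 131 UMIs in vehicle Sftpc-low members, a ratio of 3.75 (3.06 to 4.62), and a ratio of 1.02 (0.797 to 1.32) in Sftpc-high members. Rsrp1, an arginine- and serine-rich protein, had 213 CPM in navitoclax and 81.7 CPM in vehicle members, a ratio of 2.60 (2.32 to 2.92). It was higher in every class measured, with log2 ratios of 1.55 in Sftpc-low members, 1.06 in Sftpc-high members, 0.90 in ciliated and 0.93 in AT2 cells.

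**Figure D4:**
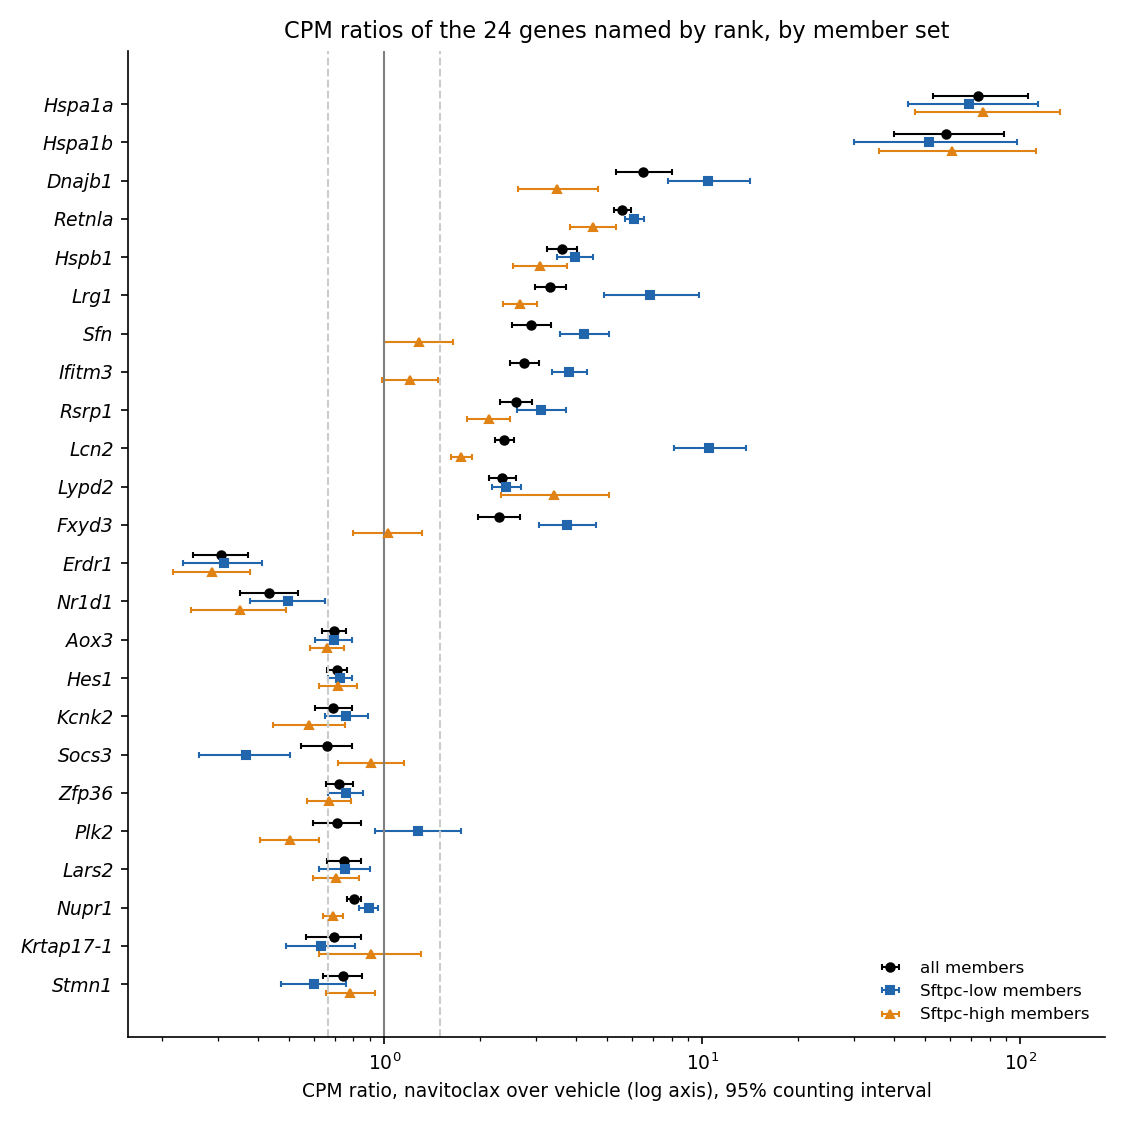
CPM ratios of navitoclax over vehicle members, on a log axis with 95% counting intervals, are shown for the 12 highest and 12 lowest genes by rank, with circles for all members, squares for Sftpc-low and triangles for Sftpc-high members, and dashed lines at 1.5-fold. Hspa1a and Hspa1b lie at 73.6 and 58.5, apart from the other genes, and Sfn, Ifitm3 and Fxyd3 show squares at 4.25, 3.81 and 3.75 with triangles at 1.28, 1.20 and 1.02.

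Few genes were lower in navitoclax members. Erdr1 had 128 UMIs in navitoclax and 522 UMIs in vehicle members (29.9 and 97.9 CPM), a ratio of 0.306 (0.250 to 0.372). It lies in the pseudoautosomal region and its reads may be shared between copies, so its count is uncertain. The log2 ratio was −1.501 in Sftpc-low and −1.67 in Sftpc-high members, −1.85 in ciliated and −1.59 in AT2 cells. Nr1d1, the clock repressor REV-ERBα, had 122 UMIs in navitoclax and 350 UMIs in vehicle members, a ratio of 0.435 (0.351 to 0.536). Its UMIs were found in 64 of 112 and 112 of 146 members, and its log2 ratio was −0.91 in AT2 cells and −0.49 in ciliated cells.

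Other clock genes were closer together. Bhlhe40, a clock repressor, had 61 UMIs in navitoclax and 128 UMIs in vehicle members, a log2 ratio of −0.59, and Per3 had 62 and 118 UMIs, −0.48. Dbp, an output gene of the clock, had 57 and 72 UMIs, and Arntl, which encodes the activator BMAL1, had 28 and 35. Of 16 measured clock genes 8 were above 0, 2 were past 1.5-fold lower and 0 past 1.5-fold higher, with a median of 0.00. Of all genes 73.3% were above 0, 0.286% past 1.5-fold lower and 2.82% past 1.5-fold higher.

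The remaining low-ranked genes were within 1.5-fold over all members. Hes1, a Notch target that holds secretory fate, had 268 CPM in navitoclax and 378 CPM in vehicle members, a log2 ratio of −0.49, with −0.62 in AT2 cells. Aox3, an aldehyde oxidase, had 179 and 257 CPM, −0.51, and Kcnk2, a potassium channel, had 81.6 and 118 CPM, −0.51. Zfp36, which promotes decay of cytokine mRNAs, had 151 and 208 CPM, −0.46. Socs3, an inhibitor of cytokine signalling, was past the line in Sftpc-low members, with 49 UMIs in navitoclax and 179 in vehicle cells and a log2 ratio of −1.25, against −0.13 in Sftpc-high members. Plk2, a stress-induced kinase, went in opposite directions, with 0.30 in Sftpc-low and −0.94 in Sftpc-high members.

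Several genes of xenobiotic metabolism, a main function of club cells, had similar levels in both libraries. Cbr2, a carbonyl reductase, had 4941 CPM in navitoclax and 4781 CPM in vehicle members, and Por, which supplies electrons to cytochromes P450, had 242 and 240 CPM. Gsta3, a glutathione transferase, had 347 and 362 CPM, and Aldh1a1, a retinaldehyde dehydrogenase, had 578 and 675 CPM. Gsto1, another glutathione transferase, had 232 and 139 CPM and was past 1.5-fold higher. Sult1d1, a sulfotransferase, had 184 and 87 UMIs, but its log2 ratio was −1.13 in Sftpc-low members without the 11 Scgb3a1 or Bpifa1 cells. Of 28 measured genes 13 were above 0 and 15 below, with a median of −0.03, against a median of 0.13 and 73.3% above 0 over all genes. Of the 28, 3 were past 1.5-fold higher (2.82% of all genes were) and 0 past 1.5-fold lower (0.286% of all genes were).

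The targets of the drug were thinly covered. Bcl2 had 20 UMIs in navitoclax and 14 UMIs in vehicle members, a ratio of 1.78 (0.856 to 3.81). Bcl2l1, which encodes BCL-XL, had 95 and 113 UMIs, a ratio of 1.05 (0.790 to 1.39), and Bcl2l2, which encodes BCL-W, had 43 and 30 UMIs, a ratio of 1.79 (1.10 to 2.95). Mcl1, a family member that navitoclax does not inhibit, had 557 and 542 UMIs, a ratio of 1.28 (1.14 to 1.45). On the log2 scale with 5 CPM added, which shrinks the ratios of thinly covered genes, Bcl2 had 0.34 and Bcl2l2 0.50. By this scale 4 of 6 measured anti-apoptotic genes were above 0 and 0 were past 1.5-fold, with a median of 0.20. Of 11 measured pro-apoptotic genes 7 were above 0, with a median of 0.12. Both counts stand against 73.3% of all genes above 0.

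Genes of the unfolded protein response, which the series asks about, stayed near the median of all genes. Of 14 measured ATF6 chaperone targets 13 were above 0 and 1 was past 1.5-fold higher, with a median of 0.25. That gene was Sdf2l1, an ER chaperone cofactor, with 91 UMIs in navitoclax and 56 UMIs in vehicle members. Calr, calreticulin, had 264 and 184 CPM. Of 20 measured IRE1-XBP1 targets 18 were above 0 and 0 past 1.5-fold, with a median of 0.19, and 12 of 18 PERK-ATF4-CHOP targets were above 0, with a median of 0.09. Of all genes 73.3% were above 0 and 2.82% past 1.5-fold higher.

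Sterol synthesis genes were measured in the same way. Of 20 measured genes 19 were above 0, against 73.3% of all genes, and 4 were past 1.5-fold higher, against 2.82% of all genes. The list medians were 0.36 in all members, 0.18 in Sftpc-low and 0.25 in Sftpc-high members, and 0.04 in AT2 cells. The medians of all genes were 0.13 in Sftpc-low and 0.09 in Sftpc-high members. Fdps, farnesyl diphosphate synthase, had 73.2 CPM in navitoclax and 39.6 CPM in vehicle members, a log2 ratio of 0.81, and Idi1, which makes its substrate, had 49.1 and 30.4 CPM, 0.61.

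Genes linked to senescence and arrest did not move together. Cdkn1a, the cell cycle inhibitor p21, had 266 UMIs in navitoclax and 446 UMIs in vehicle members (62.2 and 83.6 CPM), a log2 ratio of −0.40. Gdf15, a secreted stress protein, had 31 and 106 UMIs, a ratio of 0.365 (0.236 to 0.549), found in 8 and 24 cells. Of 12 measured senescence genes 7 were above 0 and 2 past 1.5-fold lower, with a median of 0.10, and of 21 measured p53 targets 14 were above 0, with a median of 0.09, where 73.3% of all genes were above 0. Of 19 measured cell cycle genes 6 were above 0 and 4 past 1.5-fold lower, with a median of −0.12. Of all genes 0.286% were past 1.5-fold lower. Ube2c had 3 UMIs in navitoclax members and 65 in vehicle members, 64 of them in 1 cell.

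**Figure D5:**
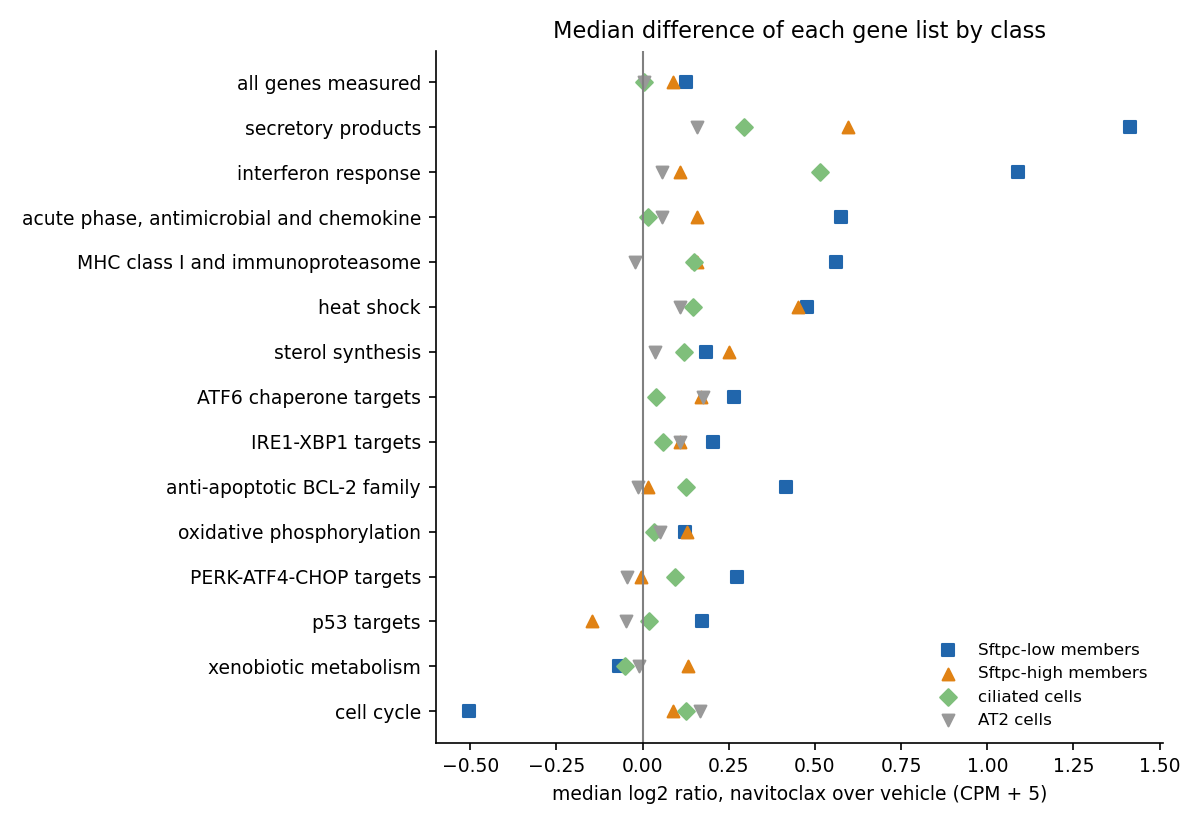
Median log2 ratios (navitoclax over vehicle, CPM + 5) of 14 gene lists and of all genes measured are shown for Sftpc-low members (squares), Sftpc-high members (triangles), ciliated cells (diamonds) and AT2 cells (inverted triangles). Sftpc-low members have medians of 1.41 for secretory products and 1.09 for interferon genes, against 0.60 and 0.11 in Sftpc-high members, and heat shock genes have 0.48 and 0.45. Without the cell of highest summed level in each library, the interferon median of Sftpc-low members was 0.48. Their secretory median was 0.61 without the 11 cells with Scgb3a1 or Bpifa1 and with these genes left out of the list.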

How the data were processed

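Single-cell libraries from a Chromium 3′ kit, 1 per group, were analysed. The authors deposited tables of raw UMI counts (genes by cell barcodes). Their headers name Cell Ranger 4.0.0, and the submitters' processing notes name build mm10. Each table held 27998 genes. Other settings were not given in the sources used here.

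Members were chosen by the rule given above. Members, marker lists and gene lists were chosen with earlier results of these data known. Ciliated cells had the 5 ciliated genes at 20 per 10000 or more, and fibroblasts had over 3 UMIs of 3 collagen genes, at 20 per 10000 or more, and 0 of Epcam. Epithelial cells had at least 2 UMIs of epithelial genes. Free RNA was not subtracted. Doublets were called with Scrublet (scanpy 1.11.5, expected rate 6%) and kept, with their removal as an alternative.

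Summed UMIs of each class and library were given as CPM with exact Poisson intervals, conditional exact intervals of ratios, exact Clopper-Pearson intervals of shares and Newcombe intervals of their differences, all at 95% and for counting error only. Log2 ratios used a pseudocount of 5 CPM. Genes with at least 20 UMIs over both libraries were measured, and called past 1.5-fold. No test was possible with 1 library per group. The calculation was tested on simulated data. Coordinates were on GRCm38 and promoters from RefSeq (GRCm38.p6). Python 3.11.15, numpy 2.4.6, scipy 1.17.1 and pandas 2.3.3 were used.

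Genes were named by rank of the interval bound nearest to 1 among those with at least 50 UMIs and 50 CPM in the higher library, 12 each way. Unnamed models, ribosomal, mitochondrial and sex-linked marker genes, the genes of the rule, genes with over 25% of their UMIs in 1 cell and genes under 10% of their CPM in another class were left out. Up to 3 members of each list and the drug targets were added, and further genes named in the text were chosen as list members after their values were seen. The split at Sftpc 50 was planned. The set with Scgb3a1 or Bpifa1, its removal, and the removal of the highest cell of a list were added after the data were seen.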

Additional observations from a re-analysis of the deposited data

Results flagged for a closer look

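For these 2 genes the ratio of navitoclax over vehicle was past 1.5-fold in opposite directions in the members and in ciliated cells. Lypd2 had a log2 ratio of 1.20 in members, from 1178 UMIs in the navitoclax and 626 UMIs in the vehicle library, and −0.63 in ciliated cells, from 683 and 726 UMIs. Scgb3a1 had a log2 ratio of 2.76 in members, from 13569 and 2477 UMIs, and −1.88 in ciliated cells, from 107 and 326 UMIs. The difference was not tested for either gene. Without the 11 members carrying Scgb3a1 or Bpifa1, the log2 ratio of Lypd2 in Sftpc-low members was 0.11, and none is given for Scgb3a1, which chose those cells.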

How the results depend on the processing

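No paired analysis was possible because each group had 1 library. The 19 alternatives comprised 17 planned and 2 added after the data were seen. The share of members differed by −0.908 to −0.292 percentage points among epithelial cells and by −9.50 to −4.19 points among airway cells over 11 alternatives. Counts of genes past 1.5-fold depended on the setting, against 286 higher and 29 lower in the reported analysis. With Sftpc-high members left out there were 460 higher and 72 lower, with Sftpc-high members alone 565 and 151, with median ratio scaling 133 and 59, with the mean of per-cell CPM 591 and 135, with a pseudocount of 1 CPM 1042 and 175, and with 10 CPM 128 and 9. Lower genes numbered 113 with the 5 club marker genes left out of the total, 19 without the cell of most UMIs in each library, and 127 with cells thinned to 2000 UMIs. Of the 24 genes ranked, 22 kept their direction in all 16 settings that applied, and 9 were past 1.5-fold in all. Reversed log2 ratios were 0.11 for Ccl20 without Sftpc-high members, −0.11 for Isg15, −0.054 for Pdk4, 0.16 for Ube2c and 0.30 for Ccnb2 in Sftpc-high members alone, −0.56 for Sult1d1 without the Scgb3a1 or Bpifa1 cells, 0.013 for Ube2c and 0.067 for Ccnb2 without the top cell, and −0.69 for Maml1 and −0.024 for Sgk1 after thinning. The cause was not tested. List medians ranged from 0.21 to 0.52 for heat shock, 0.58 to 1.41 for secretory, 0.11 to 1.09 for interferon and 0.16 to 0.56 for MHC class I genes. Depth limits Bcl2, with 20 UMIs in navitoclax and 14 UMIs in vehicle members.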
